A study of Mus musculus with 23 samples.

Results

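Transcripts of 10 adipocyte genes were followed in bone from WT mice and from mice labelled Sarm1 knockout (KO), with and without type 1 diabetes (T1D). The genes were selected by symbol from a list written with earlier results of these data known, and comprised the secreted factors Adipoq, Lep, Retn, and Cfd, the lipid droplet proteins Plin1 and Cidec, Fabp4 and Pck1 from fatty acid handling, and the transcription factors Pparg and Cebpa. All 10 were found among the 17644 gene entries of the TPM table and matched by gene ID to the 67228 entries of the count table. Of the 10, 9 had 10 or more counts in 5 or more mice and belonged to the 14364 genes tested. Lep fell below this limit. On GRCm38.p6, RefSeq places Adipoq at chr16:23146536-23157968, Lep at chr6:29060221-29073876, Retn at chr8:3655770-3659818, Cfd at chr10:79890853-79892655, and Plin1 at chr7:79721164-79732904. Cidec lies at chr6:113424634-113435760, Fabp4 at chr3:10204342-10208616, Pck1 at chr2:173153073-173159274, Pparg at chr6:115360879-115490404, and Cebpa at chr7:35119293-35121928.

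The libraries came from 23 female C57BL6/N mice at 11 weeks of age, with 1 library per mouse from the femur and tibia of a single hind limb, from which the ends had been cut off and the marrow spun out. There were 5 nondiabetic WT mice (WT Control) and 6 mice in each of WT T1D, KO Control, and KO T1D. T1D mice had been injected with streptozotocin, which destroys the insulin-producing β cells, at 100 mg/kg on consecutive days, with a further dose where glucose stayed low, and had been diabetic for 3 weeks. Control mice received saline, and mice were fasted overnight before each injection. The deletion was global, and per the study's methods some WT mice were bought in rather than bred as littermates, without a label to say which.

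Adipocytes store triglyceride in a single large droplet that perilipin 1 coats and that CIDEC helps to enlarge by fusing smaller droplets. PPARγ and C/EBPα together switch on the adipocyte program, and their targets include Adipoq, Fabp4, Plin1, and Cidec. In bone, adipocytes sit in the marrow among stromal cells that share part of this program, and adipocyte precursors of the marrow already express Adipoq. Insulin promotes lipid storage and represses Pck1, so that the loss of insulin bears on this pathway directly. Several of the genes are not restricted to adipocytes, since capillary endothelium and macrophages also express Fabp4 and myeloid progenitors express Cebpa.

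The promoters of 4 of the genes are shown because Pck1, Cidec, and Cfd had the 3 largest changes of the average over both genotypes, while Adipoq, the hormone most specific to the lineage, changed little. The sequences are from RefSeq on GRCm38.p6 and hold the 250 bases before an annotated start, 5′ to 3′ on the strand of the gene. They lie at chr2:173152823-173153072, chr6:113435761-113436010, chr10:79890603-79890852, and chr16:23146286-23146535, of which Cidec is on the minus strand. For Cidec, which has a further window inside the gene, the window upstream of the gene is shown. Capitals mark a match to any of the motifs named in the paragraph on motifs.
Pck1: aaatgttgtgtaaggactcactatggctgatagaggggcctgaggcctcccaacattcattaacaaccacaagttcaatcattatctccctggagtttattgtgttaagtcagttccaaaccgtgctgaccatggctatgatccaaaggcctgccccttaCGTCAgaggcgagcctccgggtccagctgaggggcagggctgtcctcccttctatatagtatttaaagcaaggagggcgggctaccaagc
Cidec: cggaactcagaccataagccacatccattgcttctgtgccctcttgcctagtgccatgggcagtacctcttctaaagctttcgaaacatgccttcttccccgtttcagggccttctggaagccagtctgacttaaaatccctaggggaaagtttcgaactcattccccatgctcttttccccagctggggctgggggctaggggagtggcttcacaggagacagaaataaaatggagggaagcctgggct
Cfd: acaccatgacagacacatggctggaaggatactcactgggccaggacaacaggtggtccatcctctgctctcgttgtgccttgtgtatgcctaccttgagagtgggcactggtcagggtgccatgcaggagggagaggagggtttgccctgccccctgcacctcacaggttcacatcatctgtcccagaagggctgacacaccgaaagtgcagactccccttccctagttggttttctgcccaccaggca
Adipoq: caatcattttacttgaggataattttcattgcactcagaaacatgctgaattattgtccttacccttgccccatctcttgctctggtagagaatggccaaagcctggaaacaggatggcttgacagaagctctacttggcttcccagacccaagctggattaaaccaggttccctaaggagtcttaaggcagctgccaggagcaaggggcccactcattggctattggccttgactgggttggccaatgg

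RefSeq windows of this kind were found for 9 of the 10 genes, 12 windows in all. They were searched on both strands for AGGTCA, the core that nuclear receptors such as PPARγ bind, for TTGCNNAA, a core bound by C/EBP proteins, for TGACG, the core of the cAMP response element, and for DR1, a pair of perfect nuclear receptor cores spaced by a single base. AGGTCA was present in 2 of the 12 windows, both at Pparg, against 14% of 32851 windows of all genes. TTGCNNAA was present in 4 windows, at Cidec (the window not shown), Lep, Plin1, and Pparg, against 9.56% of all windows. TGACG was present at Pck1 only, 90 to 86 bases before the start, against 17.8% of all windows. DR1 was in 0 of the 12 windows and in 0.0335% of all windows. These matches describe letters, and enhancers farther away were not searched.

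Total counts per mouse ranged from 16938101 to 20135592. Counts were compared with edgeR's quasi-likelihood test after TMM normalization, p values were adjusted by the Benjamini-Hochberg method over the 14364 genes, and a gene was called below an adjusted p of 0.05. Levels within a gene are given as counts scaled to the normalized library size (CPM), and levels between genes as TPM, which also allow for gene length. Sarm1 RNA did not separate the libraries labelled KO from the rest, with means of 1.17 and 0.687 CPM in nondiabetic and diabetic WT mice and 0.799 and 1.19 CPM in the corresponding KO mice (5 to 32 counts per mouse), so genotype rests on the labels. A few genes did differ between the labelled genotypes (lowest adjusted p = 2.01e-15 in Control and 1.23e-16 in T1D mice, edgeR). By qPCR, the study reports less Sarm1 in KO than in WT bone. The WT T1D mice A3905 and A3906 stood apart from the other 21 mice. Their summed osteoblast markers (10 genes) were 6159 and 4721 CPM, against 52953 to 118113 CPM in the others, and their summed erythroid markers (12 genes) were 239140 and 234146 CPM, against 81564 to 180348 CPM. Their osteoclast marker sums of 4443 and 4769 CPM (others 1575 to 3085) and neutrophil marker sums of 37395 and 33743 CPM (others 19060 to 31218) were also the highest. Mouse IDs beginning with A17 were carried by 1 WT Control, 3 WT T1D, and 0 KO mice, and the rest began with A36 to A39.

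Levels of the 10 genes differed widely in nondiabetic WT bone. Fabp4, a fatty acid carrier, had the highest mean at 134.8 ± 25.8 TPM (SD, n = 5), followed by Adipoq at 84.2 ± 13.96 TPM. The ranges of these genes, 98.7 to 167 TPM and 59.9 to 94.7 TPM, did not overlap. Cebpa followed at 49.1 ± 5.5 TPM and Cfd at 48.6 ± 23.8 TPM, and these neighbours did not differ beyond their spread. Pparg stood at 18.1 ± 2.8 TPM, and its highest mouse, 21.6 TPM, lay above the lowest mouse for Cfd, 19.9 TPM. The next 3 genes overlapped throughout, with Retn (resistin) at 2.69 ± 1.83 TPM, Plin1 at 1.60 ± 0.70 TPM, and Cidec at 1.45 ± 0.73 TPM. Pck1, which makes glycerol for triglyceride storage in adipocytes and glucose in liver, was near the limit of detection at 0.20 ± 0.18 TPM. Lep (leptin) was lowest at 0.04 ± 0.06 TPM. The droplet genes Plin1 and Cidec were thus present at far lower levels than Adipoq or Fabp4.

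In WT mice, T1D raised Fabp4 and Pck1, and 5 further genes of the 10 (Cidec, Cfd, Retn, Plin1, and, downward, Pparg) had an unadjusted p under 0.05 without reaching the threshold. The 2 calls were both upward, 2 of 9 genes tested, against 2.33% of all genes called in this comparison and 1.5% called upward. The median log2 fold change of the 9 genes was 1.21, against -0.011 for all genes tested, of which 22.2% had an unadjusted p under 0.05. More adipocytes and more RNA per adipocyte cannot be told apart in bulk RNA. In KO mice 0 of the 9 genes were called, against 0% of all genes (lowest adjusted p = 0.797, edgeR, and 0 genes with DESeq2), and their median log2 fold change was 0.16. A single member, Cfd, had an unadjusted p under 0.05 there, against 3.15% of all genes. Averaged over genotypes 0 of 9 were called, against 0.111% of all genes, although 7 of 9 had an unadjusted p under 0.05 (16.4% of all genes) and DESeq2 called 1, against 1.73% of all genes called by DESeq2. Without A3905 and A3906, 0 of the 9 genes and 0 of all genes were called in WT mice by edgeR (1571 genes with an unadjusted p under 0.05). The calls were also fragile to other mice, since 0 of the 9 genes were called in 14 of the 23 fits that left out a single mouse. These were the fits without the WT Control mice A3767, A3903, A3904, or A3907, the WT T1D mice A1787, A3905, or A3906, the KO Control mice A3679, A3680, A3670, or A3673, and the KO T1D mice A3681, A3675, or A3676. In the fits without A3767 or A3907, and in a fit of the WT groups only, 0 of all genes were called as well.

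**Figure D1:**
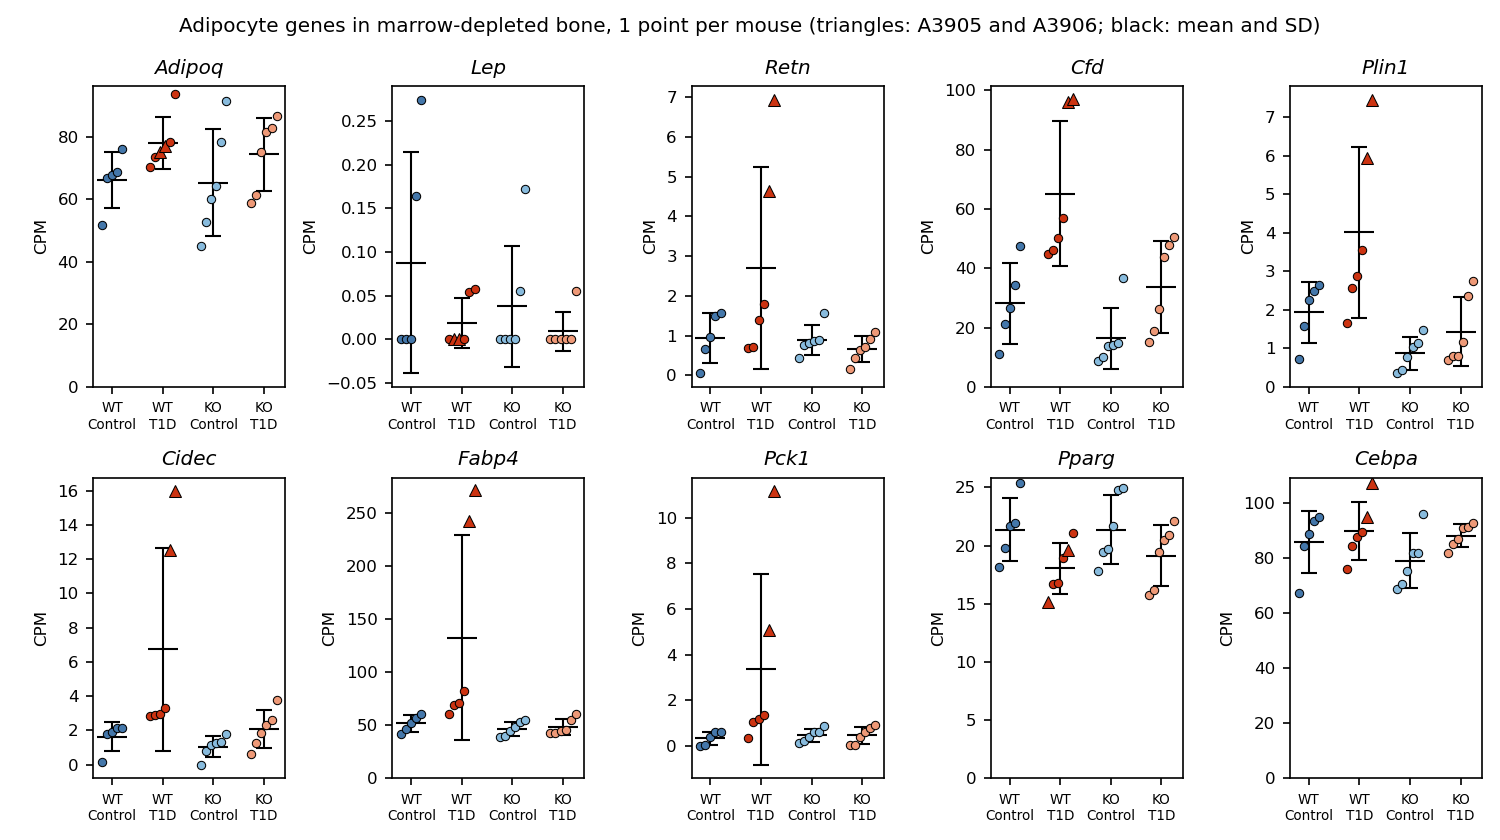
CPM (vertical axes, linear) of each of the 10 genes in each of the 23 mice by group, with the group mean and SD in black and the WT T1D mice A3905 and A3906 as triangles. The 2 triangles are highest for Retn, Cfd, Plin1, Cidec, Fabp4, and Pck1, up to 271.4 CPM for Fabp4, but lie among the other mice for Adipoq and at 0 for Lep.

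Among the adipokines, Adipoq, the insulin-sensitizing hormone adiponectin, had similar means in all groups. Its level in WT Control mice was 51.8, 66.7, 67.6, 68.5, and 76.0 CPM, and WT T1D mice ranged from 70.3 to 93.7 CPM with a median of 75.9 CPM. The groups overlapped, with 3 of 6 T1D mice above every Control mouse, and A3905 and A3906 at 76.9 and 74.9 CPM were ordinary. In WT mice its log2 fold change was 0.24 (SE 0.15, adjusted p = 0.343, edgeR), and in KO mice, which ranged from 44.9 to 91.4 CPM in Control and from 58.7 to 86.6 CPM in T1D, it was 0.19 (SE 0.14, adjusted p = 1). On the TPM scale, where the median of all genes was lower in WT T1D by 0.24 (log2), the WT difference was -0.04.

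Cfd, the complement protease adipsin, had positive estimates of similar size in both genotypes. WT Control mice had 11.2, 21.3, 26.7, 34.4, and 47.5 CPM, and WT T1D mice had 44.8, 46.1, 50.2, 57.1, 96.0, and 96.9 CPM. Of the 6 WT T1D mice, 4 lay above every Control mouse, and the remaining 2 lay just below the highest Control mouse. KO Control mice had 8.70, 10.03, 13.7, 14.2, 14.9, and 36.7 CPM, and KO T1D mice ranged from 15.2 to 50.6 CPM with a median of 35.1 CPM. The log2 fold change was 1.21 (SE 0.39, adjusted p = 0.0781) in WT mice and 1.04 (SE 0.37, adjusted p = 1, unadjusted p = 0.00977) in KO mice by edgeR. The average over genotypes was 1.13 (SE 0.27, adjusted p = 0.0922), the lowest adjusted p of the 9 genes in that comparison. With DESeq2 this average was called (adjusted p = 0.0185), as it was among mice A36 to A39 only, at 1.23 (SE 0.31, adjusted p = 0.0404). It was 0.93 without A3905 and A3906 (SE 0.26, adjusted p = 0.252).

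Retn had estimates of opposite sign in the 2 genotypes, neither past the threshold. WT Control mice had 0.05, 0.66, 0.96, 1.49, and 1.58 CPM, and WT T1D mice had 0.69, 0.71, 1.39, 1.80, 4.64, and 6.94 CPM, of which the last pair was A3905 and A3906. KO mice ranged from 0.43 to 1.57 CPM in Control and from 0.16 to 1.08 CPM in T1D. The log2 fold change was 1.50 (SE 0.60, adjusted p = 0.146, edgeR) in WT mice and -0.42 (SE 0.60, adjusted p = 1) in KO mice. When A3905 and A3906 were left out the WT value was 0.27 (SE 0.54), so the WT difference for Retn rested on these mice.

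Lep was almost absent from every library. It had 3 and 5 counts in 2 of the 5 WT Control mice, 1 count in each of 2 WT T1D mice, 3 and 1 counts in 2 KO Control mice, 1 count in a single KO T1D mouse, and 0 counts in the other 16 mice. A difference with T1D was not detectable at this depth (two-sided exact permutation tests of log2(CPM + 0.5), p = 0.379 in WT, p = 0.727 in KO, and p = 0.171 averaged over genotypes, n = 5 or 6 mice per group). Between genotypes the exact permutation p was 0.576 in Control mice and 0.727 in T1D mice.

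The lipid droplet genes had large fold changes from low levels. Cidec had 0.16, 1.81, 1.93, 2.14, and 2.14 CPM in WT Control mice and 2.81, 2.89, 2.93, 3.32, 12.5, and 16.0 CPM in WT T1D mice. The groups did not overlap, as was the case, in this direction, for 1.32% of all genes tested, and Cidec was the only member of which this was true. Its log2 fold change in WT mice was 2.04 (SE 0.63, adjusted p = 0.0699, edgeR), which fell to 0.86 (SE 0.57, adjusted p = 0.61) without A3905 and A3906. In KO mice, where it ranged from 0 to 1.79 CPM in Control and from 0.59 to 3.76 CPM in T1D, 4 of 6 T1D mice lay above every Control mouse, and the log2 fold change was 0.98 (SE 0.61, adjusted p = 1).

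Plin1 had 0.71, 1.59, 2.26, 2.48, and 2.66 CPM in WT Control mice and 1.66, 2.56, 2.89, 3.55, 5.94, and 7.46 CPM in WT T1D mice. The groups overlapped, and 4 of 6 T1D mice lay above every Control mouse. The log2 fold change was 1.05 (SE 0.44, adjusted p = 0.161, edgeR) in WT mice and 0.73 (SE 0.45, adjusted p = 1) in KO mice, whose levels ranged from 0.36 to 1.47 CPM in Control and from 0.71 to 2.76 CPM in T1D. The WT value was 0.46 (SE 0.44) without A3905 and A3906.

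Fabp4 was higher in WT mice with T1D, whereas its means in KO mice were nearly equal. WT Control mice had 41.6, 46.3, 52.4, 57.2, and 60.8 CPM, and WT T1D mice had 60.1, 69.0, 70.6, 82.1, 241.8, and 271.4 CPM. Only A1764 of the T1D mice lay within the Control range, and A3905 and A3906 lay far above the rest. KO Control mice ranged from 39.1 to 54.5 CPM with a median of 46.8 CPM and KO T1D mice from 42.5 to 60.9 CPM with a median of 45.2 CPM, overlapping almost fully. The log2 fold change was 1.36 (SE 0.32, adjusted p = 0.0418, edgeR) in WT mice and 0.06 (SE 0.29, adjusted p = 1) in KO mice. Without A3905 and A3906 the WT value was 0.45 (SE 0.13, adjusted p = 0.286) and was no longer called. The difference between genotypes in the response to T1D was -1.30 (SE 0.43, unadjusted p = 0.00579, adjusted p = 0.479) and did not pass the threshold.

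Pck1 had the largest log2 fold change of the 9 genes in WT mice, from very few counts. WT Control mice had 0, 1, 7, 11, and 11 counts (0 to 0.62 CPM), and WT T1D mice had 6, 19, 21, 24, 90, and 193 counts (0.34 to 11.2 CPM). All T1D mice except A1758 lay above every Control mouse, and A3905 and A3906 at 5.10 and 11.2 CPM lay above the rest, which reached 1.35 CPM. In KO mice counts ranged from 2 to 15 in Control and from 1 to 19 in T1D, with overlapping levels. The log2 fold change was 3.30 (SE 0.86, adjusted p = 0.0476, edgeR) in WT mice and 0.01 (SE 0.81, adjusted p = 1) in KO mice. With A3905 and A3906 left out, the WT value was 1.52 (SE 0.73, adjusted p = 0.452).

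**Figure D2:**
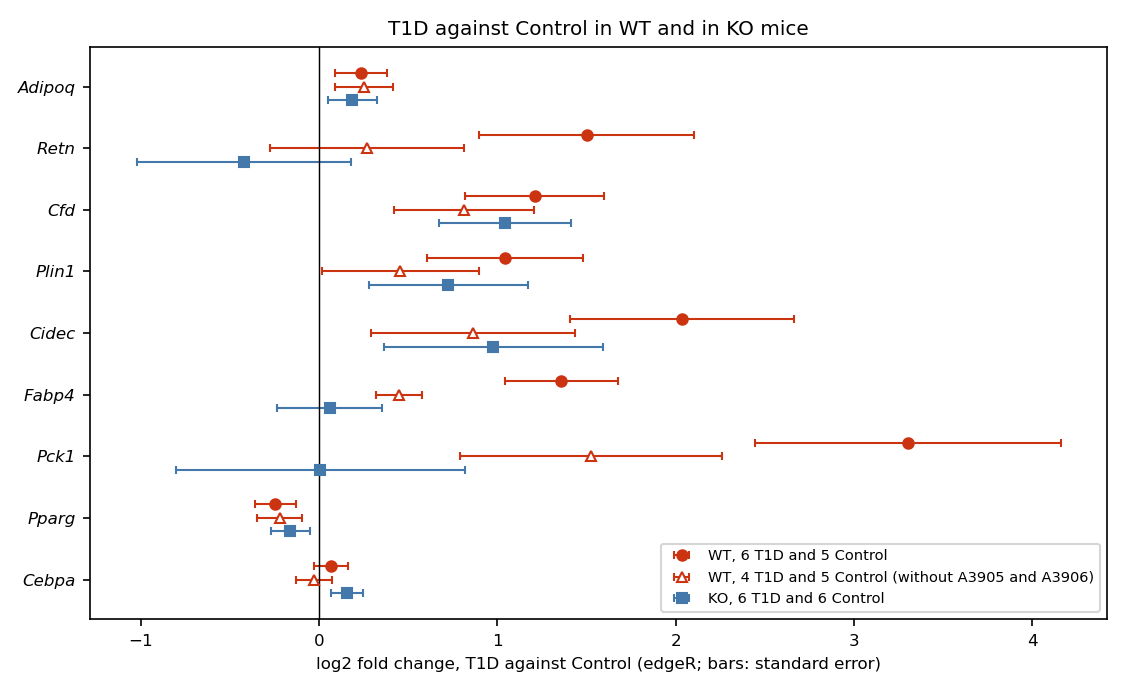
Log2 fold change of T1D against Control (horizontal axis, edgeR, bars are standard errors) for the 9 tested genes in WT mice, in WT mice without A3905 and A3906, and in KO mice. Without these 2 mice the WT value of Pck1 moved from 3.30 to 1.52, that of Cidec from 2.04 to 0.86, and that of Fabp4 from 1.36 to 0.45, while Adipoq stayed at 0.24 and 0.25.

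In WT mice the transcription factors had smaller differences than Pck1, Cidec, Retn, Fabp4, Cfd, and Plin1. Pparg, the master regulator of adipocyte differentiation, had 18.2, 19.8, 21.7, 21.9, and 25.3 CPM in WT Control mice and ranged from 15.2 to 21.1 CPM in WT T1D mice with a median of 17.9 CPM. The groups overlapped, with 3 of 6 WT T1D mice below every Control mouse, and in KO mice, which ranged from 17.8 to 25.0 CPM in Control and from 15.8 to 22.1 CPM in T1D, 2 of 6 T1D mice lay below every Control mouse. The log2 fold change was -0.24 (SE 0.11, adjusted p = 0.207, edgeR) in WT mice and -0.16 (SE 0.11, adjusted p = 1) in KO mice. On the log2(TPM + 1) scale, where the median of all genes was lower in WT T1D by 0.24, limma called it lower in WT T1D at -0.52 (adjusted p = 0.0109). A lower level was the common call on that scale, where 35.9% of all genes were called and only 83 of these 5154 were higher in WT T1D.

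Cebpa, its partner, ranged from 67.3 to 95.0 CPM in WT Control and from 76.0 to 107.4 CPM in WT T1D mice, and from 68.7 to 96.0 CPM in KO Control and from 82.1 to 92.9 CPM in KO T1D mice. Its log2 fold change was 0.07 (SE 0.09, adjusted p = 0.716) in WT mice, which turned to -0.22 on the log2(TPM + 0.1) scale, and 0.16 (SE 0.09, adjusted p = 1) in KO mice.

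**Figure D3:**
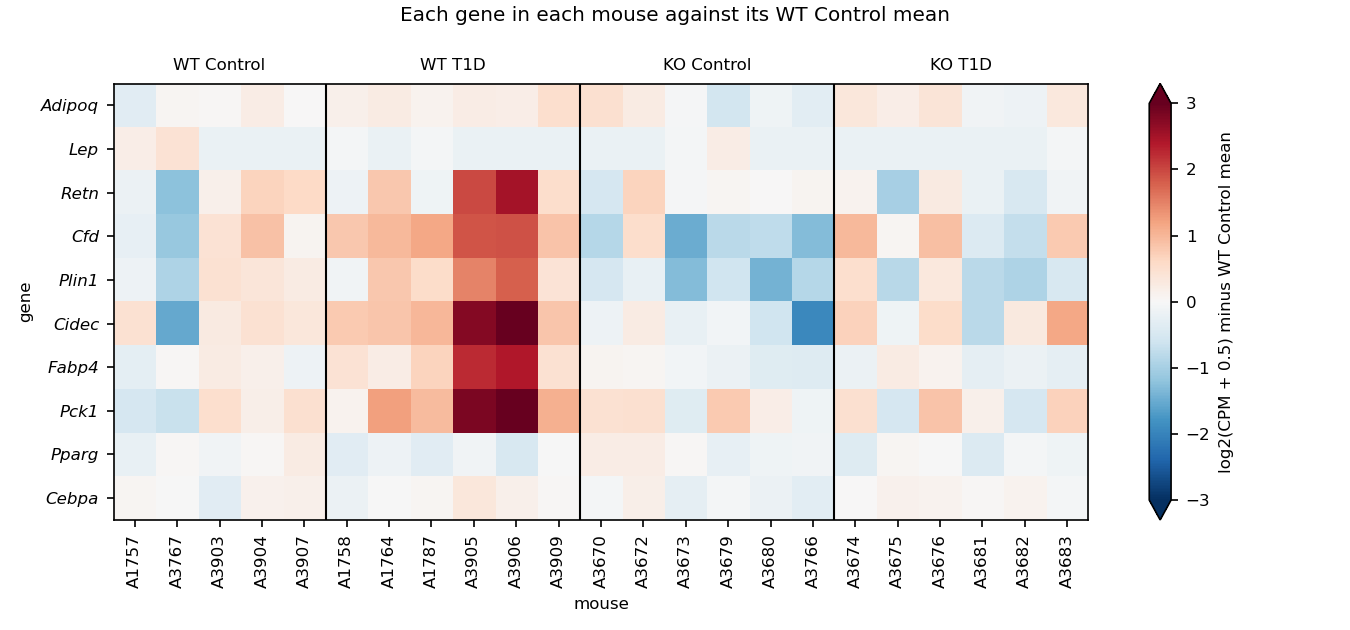
Difference of log2(CPM + 0.5) from the WT Control mean of each gene (rows) in each of the 23 mice (columns, by group), with colors capped at 3 in both directions. Cidec, Pck1, Fabp4, Retn, Cfd, and Plin1 are red in A3905 and A3906, while the rows of Adipoq, Lep, Pparg, and Cebpa are pale in all mice.

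The response to T1D was also compared between genotypes, which is the question the study's design puts. For the interaction 0 of the 9 genes were called, against 0% of all genes (lowest adjusted p = 0.479 and 10.2% with an unadjusted p under 0.05, edgeR, and 0 genes with DESeq2). Pck1 had an interaction of -3.29 (SE 1.18, unadjusted p = 0.0103), Retn of -1.92 (SE 0.85, unadjusted p = 0.0331), and Fabp4 of -1.30, each with an adjusted p of 0.479. In the fit without A3905 and A3906 these values were -1.52 for Pck1, -0.70 for Retn, and -0.39 for Fabp4. The other 6 genes lay between -1.06 (Cidec) and 0.09 (Cebpa). The missed threshold does not show that the genotypes responded alike.

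Between nondiabetic genotypes 0 of the 9 genes were called by edgeR, against 0.0278% of all genes, and 0 by DESeq2. By edgeR 1 of 9 had an unadjusted p under 0.05, against 4.8% of all genes. Log2 fold changes of KO against WT ranged from -1.16 (Plin1, SE 0.46, adjusted p = 0.999, edgeR) to 0.46 (Pck1, SE 0.90). Between T1D mice 0 of 9 were called by edgeR, against 0.0905% of all genes, and 4 by DESeq2, against 1.66% of all genes called by DESeq2. An unadjusted p under 0.05 was found for 6 of 9 by edgeR, against 17.1% of all genes. The values of KO against WT with T1D were -2.83 (SE 0.77, adjusted p = 0.118) for Pck1, -2.01 (SE 0.58, adjusted p = 0.132) for Retn, -1.70 (SE 0.58, adjusted p = 0.182) for Cidec, -1.48 (SE 0.42, adjusted p = 0.127) for Plin1, and -1.45 (SE 0.30, adjusted p = 0.0644) for Fabp4. In the absence of A3905 and A3906 these were -1.05, -0.79, -0.54, -0.89, and -0.54, in that order. These comparisons share the WT T1D mice with the comparison of T1D in WT.

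Because the IDs of A17 mice occurred in WT groups only, the WT comparison was repeated within mice A36 to A39, that is, 4 WT Control and 3 WT T1D mice, of which A3905 and A3906 were 2. There 4 of the 9 genes were called, with log2 fold changes of 3.84 for Pck1, 2.80 for Cidec, 2.09 for Retn, and 1.86 for Fabp4, against 15.5% of all genes called in that fit. With all mice and an added term for the A17 IDs, chosen after seeing the data, 4 of the 9 genes were called, with 3.83 for Pck1, 2.06 for Cidec, 1.50 for Fabp4, and 1.36 for Cfd, against 5.58% of all genes. The same fit called Fabp4, Pck1, Retn, and Plin1 lower in KO than in WT mice with T1D, against 4.62% of all genes. Among the A17 mice alone, the single Control mouse A1757 lay below all 3 T1D mice in CPM for 7 of the 9 genes, the exceptions being Pparg and Cebpa. For Retn (12 counts) and Plin1 (29 counts), A1757 and the T1D mouse A1758 had equal counts. With a single Control mouse this order carries little weight, and its share over all genes was not computed.

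Markers of other cell types moved with the WT response. Of the 12 erythroid markers, 6 were called higher in WT T1D and 0 lower, with summed levels from 98573 to 144259 CPM in WT Control and from 127308 to 239140 CPM in WT T1D, and of the 10 osteoblast markers, 2 (Ibsp and Runx2) were called lower, with sums from 60720 to 118113 and from 4721 to 85384 CPM. Of all genes tested, 2.33% were called in this comparison, 1.5% were called upward, and 22.2% had an unadjusted p under 0.05 (edgeR). In KO mice 0 markers of the erythroid and osteoblast lists were called, against 0% of all genes. Erythroid sums there ranged from 81564 to 166221 CPM in Control and from 109942 to 153814 CPM in T1D. When the mean log2 level of the erythroid markers was added to the model, the WT log2 fold change of Fabp4 was 0.27 (SE 0.33) and that of Pck1 1.45 (SE 1.17). In that fit 0 of the 9 genes and 0 of all genes were called in WT mice. Of all genes, 531 had an unadjusted p under 0.05 there (edgeR), against 3195 without this term, so the loss of calls was not particular to the adipocyte genes. Among markers of cells that also express Fabp4, 0 of 10 endothelial and 0 of 9 macrophage genes were called in WT mice (3 and 5 with an unadjusted p under 0.05), with median log2 fold changes of -0.21 and -0.20. In A3905 and A3906 the macrophage sums were 1200 and 1250 CPM, against 1095 to 1258 CPM in the other 4 WT T1D mice, and the endothelial sums were 492 and 460 CPM, against 483 to 574 CPM. A3906 thus lay below the others for endothelial markers. Of 9 marrow stromal markers 0 were called in WT mice (3 with an unadjusted p under 0.05, edgeR), with a median log2 fold change of -0.21. The list was split, with 4 of the 9 genes above 0. Vcam1 had 0.35 (SE 0.10, adjusted p = 0.0545, edgeR), whereas Pdgfra had -0.57 (SE 0.22, adjusted p = 0.138) and Ebf3 -0.29 (SE 0.09, adjusted p = 0.0785). The sum of this list was nevertheless 2463 and 2523 CPM in A3905 and A3906, against 1936 to 2138 CPM in the other WT T1D mice. Skeletal muscle marker sums ranged from 266 to 11516 CPM over all mice. With their mean level in the model 2 of the 9 genes were called in WT mice, against 3.97% of all genes in that fit and 2.33% without this term. The part of each of these cell types in the values of the adipocyte genes was not tested.

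**Figure D4:**
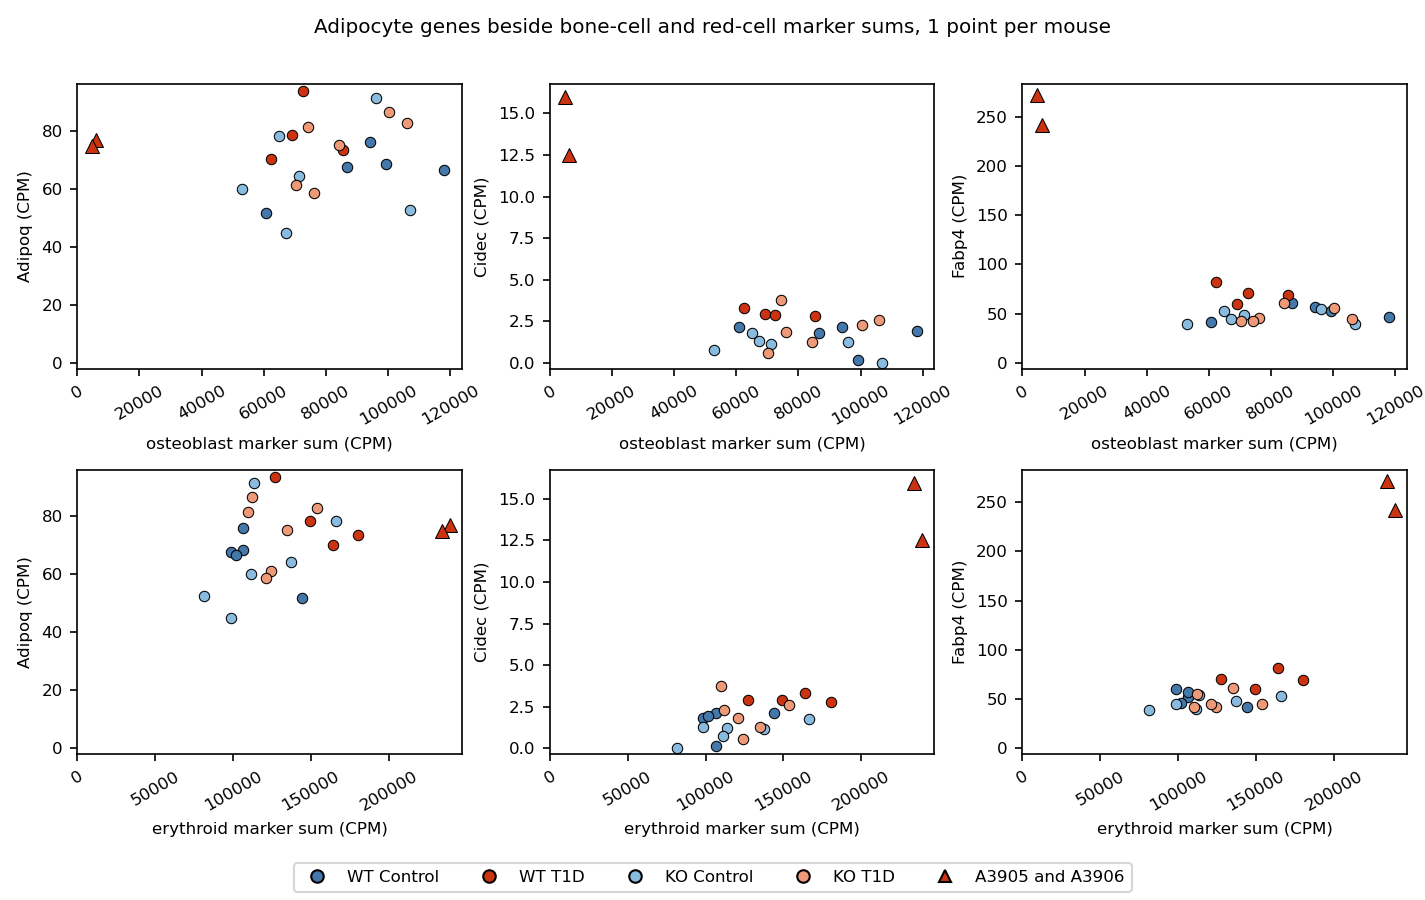
CPM of Adipoq, Cidec, and Fabp4 (vertical axes) against the summed CPM of 10 osteoblast markers (upper row) and 12 erythroid markers (lower row) in 23 mice, colored by group. A3905 and A3906 (triangles) lie at 6159 and 4721 CPM of osteoblast markers, apart from all other mice for Cidec and Fabp4 but level with them for Adipoq.

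Other genes of fat metabolism were described by lists. Of all genes tested in WT mice, 2.33% were called, 1.5% were called upward, and 22.2% had an unadjusted p under 0.05 (edgeR). Of the 15 tested genes for lipid droplets and lipolysis, 1 was called higher in WT T1D and 0 lower, with a median log2 fold change of 0.14. This gene was Plin2, the ubiquitous droplet coat protein, at 0.65 (SE 0.18, adjusted p = 0.0494, edgeR) in WT and 0.21 (SE 0.17) in KO mice. Plin4 had 1.11 (SE 0.53, adjusted p = 0.219) in WT and -0.04 (SE 0.51) in KO mice. The 3 lipases that release stored fat in sequence were named after their values were seen, and in WT mice Pnpla2 had 0.48 (adjusted p = 0.065), Lipe 0.40 (adjusted p = 0.0525), and Mgll 0.30 (adjusted p = 0.053). They missed the threshold. Because they were picked by their values, they do not stand for the list, which ranged from -0.13 to 1.55.

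Of 12 genes for fatty acid uptake and triglyceride synthesis, Cd36, a fatty acid transporter, was the only gene called in WT mice, at 0.93 (SE 0.18, adjusted p = 0.0251), from a mean of 62.0 to 118 CPM. In KO mice it had -0.04 (SE 0.17). Gpd1, which makes glycerol 3-phosphate, had 0.62 (SE 0.29, adjusted p = 0.207) in WT mice. Among 7 other adipokines only Angptl4, a secreted inhibitor of lipoprotein lipase, was called. It rose in WT mice by 1.31 (SE 0.24, adjusted p = 0.0209), from a mean of 26.3 to 65.2 CPM, and had 0.62 (SE 0.22, adjusted p = 1) in KO mice, from 26.9 to 41.3 CPM. Its average over genotypes was also called, at 0.96 (SE 0.16, adjusted p = 0.0335). Apln had -0.72 (SE 0.22, adjusted p = 0.0624) in WT mice. After removal of A3905 and A3906 the WT values were 1.17 (SE 0.25, adjusted p = 0.109) for Angptl4, 0.57 (SE 0.13, adjusted p = 0.129) for Cd36, and 0.34 (SE 0.14, adjusted p = 0.376) for Plin2. Of these genes Angptl4 moved least.

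Of 11 genes of de novo lipogenesis, which insulin promotes, 0 were called in WT mice, with a median log2 fold change of -0.10. An unadjusted p under 0.05 was found for 4 of them, against 22.2% of all genes (edgeR). Scd2, a fatty acid desaturase, had -0.78 (SE 0.22, adjusted p = 0.0578) and Thrsp, an insulin-responsive regulator of lipogenesis, had 0.92 (SE 0.29, adjusted p = 0.0781), so the largest differences of this list pointed both ways. Of 14 other adipogenic transcription factors 0 were called (6 with an unadjusted p under 0.05), with Ebf2 at -0.94 (SE 0.46, adjusted p = 0.238) and Nr1h3 at -0.31 (SE 0.14, adjusted p = 0.214). Of 12 hormone receptors, Adipor1, a receptor of adiponectin, was called at 0.34 (SE 0.08, adjusted p = 0.0367). Its value was 0.26 (adjusted p = 0.288) without A3905 and A3906 and 0.05 (adjusted p = 0.454) with limma on log2(TPM + 1), and it was called in 15 of 23 fits that left out a mouse. Adrb3, the β3 adrenergic receptor of adipocytes, had 1.20 (SE 0.76, adjusted p = 0.36). Of the 5 tested genes of gluconeogenesis beside Pck1, 0 were called (1 with an unadjusted p under 0.05), with Fbp1 at 0.85 (SE 0.26, adjusted p = 0.0698) and Fbp2 at 1.07 (SE 0.72, adjusted p = 0.388). Of the 5 tested thermogenic genes 0 were called, with Cox7a1 at -0.38 (SE 0.61) and Cox8b at 0.27 (SE 0.68), while Ucp1, the defining gene of brown fat, was under the count limit. In KO mice 0 genes of any of these lists were called, against 0% of all genes (lowest adjusted p = 0.797, edgeR).

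Within groups, Adipoq varied together with Pparg. Over 23 mice, with each gene centered on its group means, Adipoq and Pparg had a Pearson r of 0.63 and a Spearman rho of 0.62 (permutation p = 0.00368 and p = 0.00477, adjusted over the 9 pairs 0.0331 and 0.0429). Leaving out A3679 and A1757, the mice farthest from the median of Adipoq, r was 0.51 (permutation adjusted p = 0.173), so the call rested on these mice, and within mice A36 to A39 it was 0.58 (permutation adjusted p = 0.201). On log2(TPM + 1), r was 0.74 (permutation adjusted p = 0.00225). Without A3905 and A3906 it was 0.66 (permutation adjusted p = 0.0379, and 0.0698 for rho). The other 8 pairs did not pass, with r of 0.44 for Cfd, 0.31 for Plin1, 0.20 for Cidec, 0.16 for Pck1 and for Cebpa, 0.14 for Fabp4, 0.09 for Retn, and -0.39 for Lep. For Fabp4, r without A3905 and A3906 was 0.51 (permutation p = 0.0309, adjusted p = 0.133). All values come from shared libraries, so that a shift of composition touches both genes of a pair.

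Among 13298 other tested genes with a mean of at least 1 CPM, the 8 whose centered levels were most like those of Adipoq over the 23 mice were Slc40a1, the iron exporter ferroportin (r = 0.79), Rspo3, a Wnt-enhancing ligand (0.79), Adh1, an alcohol dehydrogenase (0.78), Heph, a ferroxidase (0.74), Afap1l2 (0.73), Bmi1, a polycomb protein (0.72), Septin10 (0.72), and Gas6, a ligand of TAM receptors (0.71). None of the other 9 adipocyte genes reached these values. The correlations are a description over mice that share libraries and composition, and they were selected as the highest of many.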

How the data were processed

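Bone RNA-Seq values of 23 mice were used, with groups taken from the sample titles. The authors deposited RSEM expected counts that had been rounded and left without normalization, along with TPM. Per the labels, mRNA was selected with oligo dT and the strand was marked with dUTP, and per the study's methods libraries were read in pairs on a DNBSEQ instrument. SOAPnuke removed low-quality reads, and HISAT and Bowtie2 were used for alignment, with GRCm38.p6 as the build. Total counts ranged from 16938101 to 20135592 per mouse, and the 55 pairs of mice of a group each differed beyond counting error (chi-square of 10.9 to 187 per gene). Count entries without a gene ID (33212) held 0 counts.

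Counts were tested in R 4.3.3 with edgeR 4.0.16 (TMM, quasi-likelihood, a coefficient per group, contrasts for T1D in each genotype, their average, the interaction, and genotype), over genes with 10 or more counts in 5 or more mice. DESeq2 1.42.0 and limma 3.58.1 on log2(TPM + 1) and log2(TPM + 0.1) were alternatives, as were other scaling, other filters, marker scores as covariates, subsets of mice, leaving out each mouse, and a term for A17 IDs (added after seeing the data). The model was tested on simulated data. No replicate numbers were shared between groups. Correlations used 100000 permutations within groups (numpy 2.4.6). Motifs were searched in RefSeq promoter windows, cut to the 250 bases before the start.

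Members and gene lists were chosen with earlier results of these data known. Named genes were all members, from each list the genes called in WT or on average, up to 4, and where fewer than 2 were called the 2 with the largest average change, the 8 genes most like Adipoq, and Sarm1. Of the lists, only those described are named, and Pnpla2, Lipe, and Mgll were named outside this rule. A symbol held by a gene and a pseudogene (Plin2) was read from the mRNA entry. G6pc was not matched in the table, so 177 of 178 list entries were used.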

Additional observations from a re-analysis of the deposited data

Results flagged for a closer look

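Of 40 sets of a gene in a group tested for a mouse far from the rest (gap to the nearest mouse divided by the whole range, on log2(CPM + 0.5)), 4 exceeded Dixon's critical value, and chance alone exceeds it in about 1 in 20. Lep was highest in the KO Control mouse A3679 (ratio 0.646), at 0.172 CPM from 3 counts against 0 to 0.0551 CPM in the others, and in the KO T1D mouse A3683 (ratio 1), at 0.0553 CPM from 1 count against 0 in the others. With 0 in all other mice of a group the ratio is 1 by construction. The rate of about 1 in 20 therefore does not apply to Lep, which was 0 in most mice. Cfd was highest in the KO Control mouse A3672 (ratio 0.632), at 36.7 CPM against 8.70 to 14.9 CPM. Cidec was lowest in the WT Control mouse A3767 (ratio 0.902), at 0.165 CPM from 3 counts against 1.81 to 2.14 CPM. Neither A3905 nor A3906 exceeded it for any of the 10 genes, but the ratio is not suited to a pair. Both were WT T1D mice and together the highest of that group for Retn, Cfd, Plin1, Cidec, Fabp4, and Pck1. For these genes it measured the gap between A3905 and A3906, not their distance from the other mice, so it does not show that they were ordinary.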

How the results depend on the processing

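Genes called of the 9 tested depended on the processing. For T1D in WT mice, where edgeR called 2, DESeq2 called 4, library sizes without TMM 1, all genes with a count 1, limma on log2(TPM + 1) 5 and on log2(TPM + 0.1) 4, a fit of the WT groups only 0, mice A36 to A39 only 4, the fit without A3905 and A3906 0, the erythroid covariate 0, and the A17 term 4. In that order from edgeR on, 2.33%, 6.98%, 1.85%, 0.489%, 35.9%, 36%, 0%, 15.5%, 0%, 0%, and 5.58% of all genes were called. Leaving out each mouse gave 0 to 4, with Fabp4 called in 9 and Pck1 in 5 of 23 fits. For the average over genotypes (0), DESeq2 gave 1, limma 3 and 2 with a pseudocount of 1 and 0.1, and mice A36 to A39 only 3, where 249, 1106, 951, and 536 of all genes were called against 16. For KO against WT with T1D (0), these settings gave 4, 2, 1, and 5 in the same order and the A17 term 4, where 239, 1166, 1185, 1540, and 664 of all genes were called against 13. For T1D in KO, the interaction, and KO against WT in Control, every setting run gave 0. All genes called for T1D in WT ranged from 0 to 5173 over the settings, against 334, and the calls higher in T1D were 215 of 334 with TMM, 76 of 266 with library sizes alone, and 83 of 5154 with limma on log2(TPM + 1).

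Small differences changed sign, and the cause was not tested. For T1D in WT, Adipoq was -0.0444 and -0.0449 on the 2 TPM scales (pseudocounts 1 and 0.1). Cebpa was -0.00213 with library sizes, -0.214 and -0.219 on the TPM scales, -0.0274 without A3905 and A3906, -0.0908 with the erythroid covariate, and -0.0075 to 0.124 leaving out each mouse. For T1D in KO, Fabp4 was -0.0761 and -0.0205 with the erythroid and muscle covariates and -0.0222 to 0.102 leaving out each mouse. Pck1 in KO was -0.0315 with library sizes, -0.011 and -0.141 on the TPM scales, -0.132 and -0.0801 with the covariates, and -0.328 to 0.266 leaving out each mouse. On average, Retn was -0.0783 without A3905 and A3906 and -0.0558 with the erythroid covariate, and Cebpa was -0.0485 and -0.0494 on the TPM scales. On log2(TPM + 1), r of Adipoq was -0.07 with Retn, -0.06 with Cidec, -0.05 with Fabp4, and -0.09 with Pck1, and among mice A36 to A39 it was -0.06 with Retn. The 1 correlation that passed became 0 among mice A36 to A39 and 0 without the 2 mice farthest from the median of Adipoq. By r, it passed on log2(TPM + 1) and without A3905 and A3906.

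No paired analysis was possible because mice carry individual IDs and the groups share no replicate numbers. Depth limited Lep, Pck1, Cidec, Plin1, and Retn, which had few counts in many mice.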
